A study of Mus musculus with 6 samples.

Results

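The receptors for the monoamines (serotonin, dopamine, noradrenaline and histamine) and for acetylcholine were examined in sorted cortical cells, labelled as upper layer neurons, during the first postnatal week. Markers of other cells were high in the same RNA. Astrocyte markers summed to 1543 FPKM at P3 and 1733 FPKM at P5, against 375 and 432 FPKM for upper-layer markers. Most of the astrocyte sum came from Slc1a3 (1088 and 758 FPKM) and Gja1 (362 and 717 FPKM). Mef2c (156 and 226 FPKM) and Rorb (119 and 152 FPKM) made up most of the upper-layer sum. Sums over unlike genes do not measure shares of cells. Members were taken by gene symbol alone, as every row of the deposited gene table named for a serotonin (Htr), dopamine (Drd), adrenergic (Adra, Adrb), muscarinic (Chrm), nicotinic (Chrna, Chrnb, Chrnd, Chrne, Chrng) or histamine (Hrh) receptor, with 1 symbol per row. This gave 53 genes of 22544 in all: 14 serotonin, 5 dopamine, 9 adrenergic, 5 muscarinic, 16 nicotinic and 4 histamine receptor genes. No measured value entered the choice.

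Mice of the Swiss Webster strain, 3 (P3) or 5 (P5) days old, were compared by RNA sequencing, with 3 biological replicates at each age and RNA from cortical cells that carried green fluorescent protein (GFP) and had been sorted by fluorescence. No genotype difference or drug treatment separates the groups, and how the cells received GFP is not given in the sources used here. Expression is given as FPKM, a fragment count scaled to transcript length and library size with the aim that levels can be compared between genes. Possible failed estimates and shared loci, described below, limit such comparisons here. The authors pooled the replicates into 1 value per age with Cuffdiff, so each level below is a single pooled value and the spread between replicates is seen only through the authors' test. Depth is unknown, since the table holds no counts.

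Serotonin, dopamine and noradrenaline reach the cortex in axons from brainstem and midbrain nuclei, and acetylcholine mainly in axons from the basal forebrain. Cortical neurons are thus mostly receivers of these signals. Most of the receptors are coupled to G proteins: Gs raises cyclic AMP, Gi/o lowers it and opens potassium channels, and Gq mobilises calcium. The nicotinic receptors and the serotonin receptor built from Htr3 subunits are instead ion channels that open when the transmitter binds. In developing cortex these systems are known to act on neuronal migration, dendrite growth and the formation of sensory maps.

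Few of the receptors reached 1 FPKM, and none reached 5. At P3, 6 of 53 (11.3%) had at least 1 FPKM, against 45.4% of all rows. At P5, 11 of 53 (20.8%) did, against 50.0% of all rows. Adra2a, Chrm2 and Chrnb2 reached 1 FPKM at both ages, Adra2b, Chrm5 and Hrh3 at P3 only, and 8 receptors at P5 only, among them Adrb1, Chrm1, Chrm4, Chrna4, Drd1a, Htr1f and Htr7. Nearest to this minimum were Adra2b (1.05 FPKM) above and Chrm1 (0.873 FPKM) below it at P3, and Htr1d (0.762 FPKM) below it at P5. The highest receptor level was 2.12 FPKM at P3 (Chrm5) and 4.28 FPKM at P5 (Chrna4), and 38.9% of all rows at P3 and 32.7% at P5 lay above these values. The receptors stood in a narrow, low range in which the 5 highest genes held 58.1% of the summed FPKM at P3 and 55.2% at P5.

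**Figure D1:**
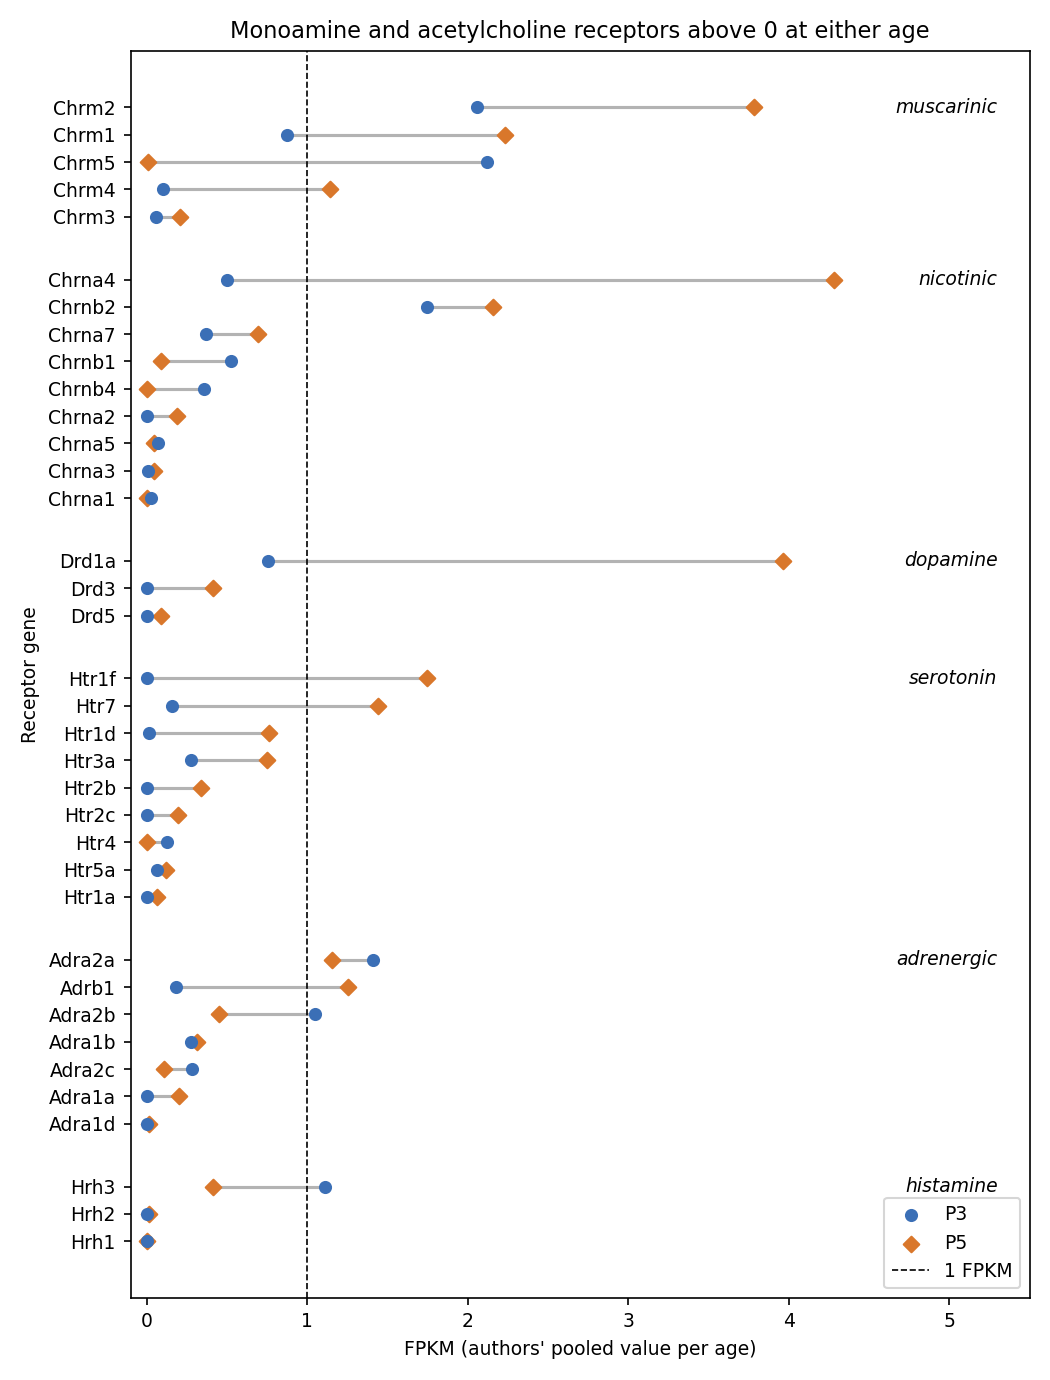
FPKM (x axis, authors' pooled value) at P3 (circles) and P5 (diamonds) for the receptor genes reported here that were above 0 at either age, grouped by transmitter; the dashed line marks 1 FPKM and grey lines join the ages. Chrna4, Drd1a and Chrm2 lie farthest right at P5, and Chrm5 is the 1 gene above 2 FPKM at P3 that lies near 0 at P5.

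A further 16 receptors (32.1% of all rows shared this state) were listed at 0 at both ages, namely Adrb3, Chrna6, Chrna9, Chrna10, Chrnb3, Chrnd, Chrne, Chrng, Drd2, Drd4, Hrh4, Htr1b, Htr2a, Htr3b, Htr5b and Htr6. Among these, Chrnd, Chrne and Chrng encode subunits of the muscle receptor, and Chrna9 and Chrna10 those of the cochlear hair cell receptor. At P3 only, 12 receptors were listed at 0, against 6.98% of all rows, and at P5 only 2 were, against 1.69% of all rows. Those 2 were Htr4 (0.129 FPKM at P3) and Chrna1 (0.0254 FPKM at P3). A value of 0 in such a table can be a failed estimate, since 5 of 72 ribosomal protein genes were also listed at 0 at both ages, so it is not read as absence. Low values need the same care: Grin1, the subunit that every NMDA-type glutamate receptor requires, had 0.766 FPKM at P3 and 2.63 FPKM at P5.

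Set beside other transmitter receptors of the same table, the monoamine and acetylcholine receptors were low. All 4 AMPA receptor subunits had at least 1 FPKM at both ages, and 3 of 8 metabotropic glutamate receptors did at P3 and 6 at P5. Of 13 GABA-A receptor subunits of the alpha, beta, gamma and delta types, 10 did at P3 and 11 at P5. Other GABA-A subunit types were not looked up, whereas the 53 receptors include the muscle and cochlear nicotinic subunits, so the shares come from unlike selections. NMDA receptor subunits were nearest in share, with 1 of 7 at P3 and 3 of 7 at P5, but Grin2b alone stood at 111 and 114 FPKM. The 53 monoamine and acetylcholine receptors together summed to 14.5 FPKM at P3 and 29.7 FPKM at P5. These differences between gene sets were not tested.

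**Figure D2:**
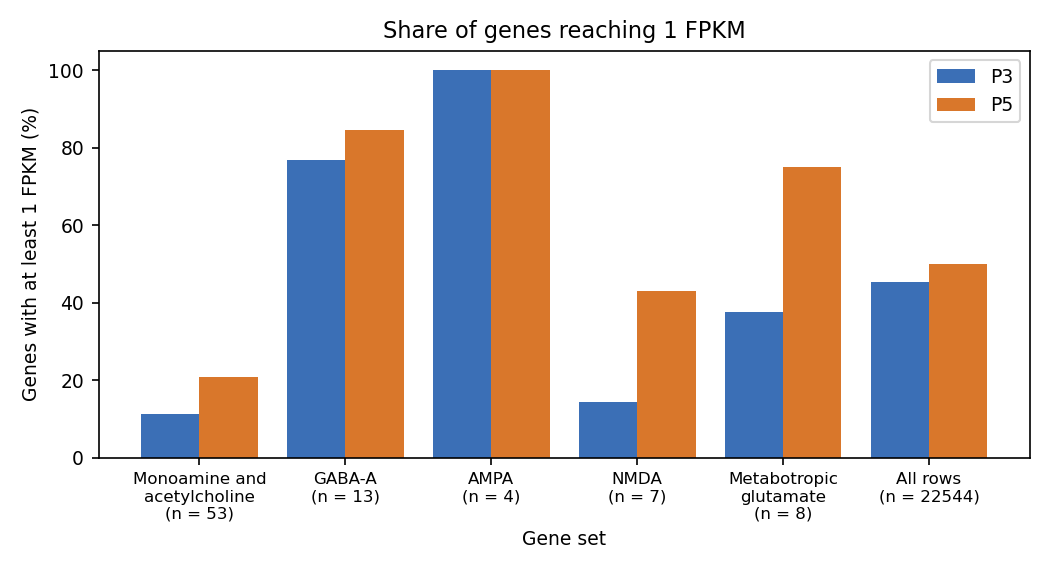
Share of genes with at least 1 FPKM (y axis, percent) at P3 and P5 in each receptor set and in all rows, with the number of genes under each pair of bars. The GABA-A set holds alpha, beta, gamma and delta subunits only. The monoamine and acetylcholine receptors, at 11.3% and 20.8%, have the lowest bars shown at either age.

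The sequence before the start site was looked at for what receptors of different levels share. RefSeq start sites (build GRCm38.p6, a newer build than the mm9 of the expression table) were found for 40 of the 53 receptors, Drd1a under its newer symbol Drd1, and the 250 bases before each start were read. Those not matched included Adra1a, Adra1d, Adrb3, Chrm1, Chrna2, Chrna6, Chrnb3, Chrnd, Hrh4, Htr3a, Htr4 and Htr5b. The ratio of observed to expected CG dinucleotides had a median of 0.770 in the 12 receptors with at least 1 FPKM at either age, 0.488 in 18 receptors above 0 but under 1 FPKM, and 0.277 in 10 listed at 0 at both ages. Other rows of the table followed the same order, with medians of 0.728 (8338 genes), 0.493 (2300 genes) and 0.173 (4454 genes). The GC box, GGGCGG on either strand, occurred in 8 of the 12, 10 of the 18 and 4 of the 10, that is 66.7%, 55.6% and 40.0%. Among other rows of the same 3 levels the shares were 65.2%, 50.7% and 13.9%. For a gene with several start sites the CG ratio was averaged, and the box was counted if any site held it. Over all 32851 RefSeq start sites, 32.7% held it in windows of that length. That share counts each site singly, so it is not on the same scale as the shares of genes. These are descriptions of letters in a window, and were not tested.

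These 4 windows were chosen to span the levels. They are given on their own strand from 5′ to 3′ with each CG dinucleotide in capitals. They do not stand for their groups, whose observed to expected ratios overlapped. The ratios ran from 0.228 to 1.08 in receptors with at least 1 FPKM at either age and from 0.0498 to 0.636 in those listed at 0. Drd1a, between Chrna4 and Chrm2 in level at P5, had a ratio of 0.411 and is not shown. Chrna4 (chr2:181039178-181039427, minus strand) had the highest receptor level at P5 and holds 24 CG. Chrm2 (chr6:36387834-36388083, plus strand), next among the acetylcholine receptors at P5, holds 12. Chrm5 (chr2:112480818-112481067, minus strand), highest at P3 and near 0 at P5, holds 2, the lowest observed to expected ratio (0.228) of the 12 receptors with at least 1 FPKM. Chrng (chr1:87205561-87205810, plus strand), the muscle subunit listed at 0 at both ages, also holds 2.
Chrna4: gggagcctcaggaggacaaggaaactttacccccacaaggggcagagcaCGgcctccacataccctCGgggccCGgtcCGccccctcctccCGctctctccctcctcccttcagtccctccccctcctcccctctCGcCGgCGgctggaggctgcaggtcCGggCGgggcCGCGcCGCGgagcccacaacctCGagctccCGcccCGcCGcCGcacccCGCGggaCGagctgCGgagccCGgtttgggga
Chrm2: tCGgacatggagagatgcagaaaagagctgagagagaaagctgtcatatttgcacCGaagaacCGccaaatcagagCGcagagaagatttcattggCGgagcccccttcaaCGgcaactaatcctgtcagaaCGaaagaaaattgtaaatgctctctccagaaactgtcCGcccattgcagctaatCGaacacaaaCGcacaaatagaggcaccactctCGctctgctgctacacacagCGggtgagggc
Chrm5: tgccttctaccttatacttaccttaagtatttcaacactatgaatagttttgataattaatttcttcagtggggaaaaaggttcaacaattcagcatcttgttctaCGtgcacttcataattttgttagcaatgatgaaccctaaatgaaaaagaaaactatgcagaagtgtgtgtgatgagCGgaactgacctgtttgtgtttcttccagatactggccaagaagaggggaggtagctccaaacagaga
Chrng: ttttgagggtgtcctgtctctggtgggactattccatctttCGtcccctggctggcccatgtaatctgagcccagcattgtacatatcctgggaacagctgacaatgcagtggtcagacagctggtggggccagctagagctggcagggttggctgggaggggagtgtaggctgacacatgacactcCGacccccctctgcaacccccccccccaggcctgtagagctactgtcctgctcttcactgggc

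**Figure D3:**
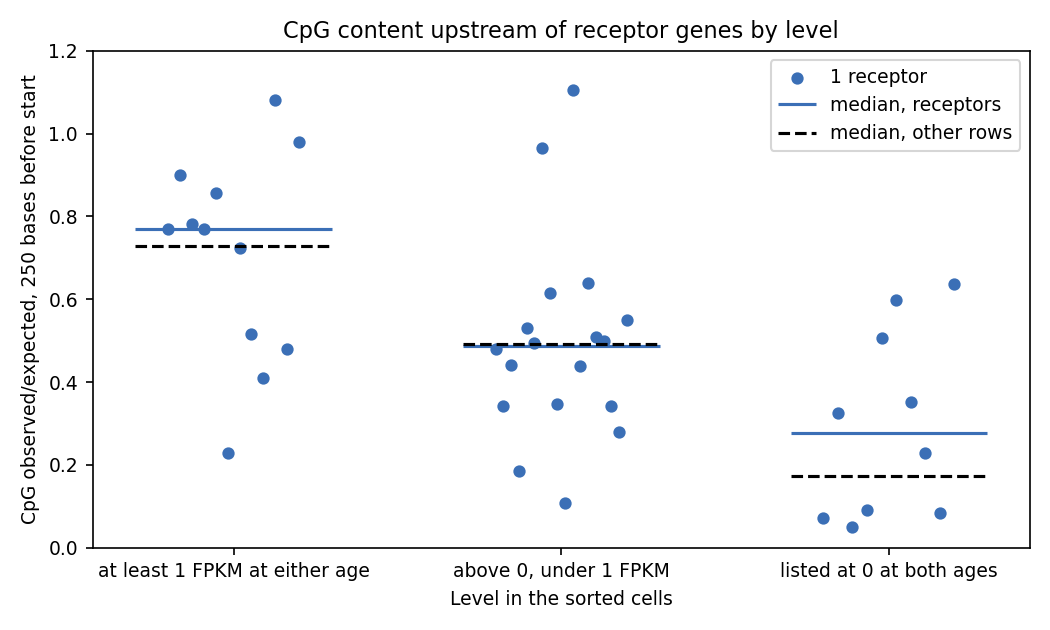
Observed to expected ratio of CG dinucleotides in the 250 bases before the start (y axis) for each of 40 receptors (points), grouped by level, with the median of the receptors (solid) and of the other rows of the table (dashed). Both medians step down from the group with at least 1 FPKM (0.770 and 0.728) to the group listed at 0 (0.277 and 0.173).

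Muscarinic receptors, which carry the slower acetylcholine signal through G proteins, were the 1 family with no member listed at 0 at either age. Chrm2, coupled to Gi/o, stood at 2.06 FPKM at P3 and 3.78 FPKM at P5, a log2 ratio of 0.88 (SE 1.96, p = 0.66 in the authors' deposited table). Chrm1, the main Gq-coupled form of adult cortical pyramidal neurons, had 0.873 and 2.23 FPKM, a ratio of 1.35 (SE 2.09, p = 0.52 in the authors' deposited table). Chrm4, also coupled to Gi/o, had 0.103 and 1.14 FPKM, and Chrm3, coupled to Gq, 0.0609 and 0.206 FPKM without being tested. All 4 had higher FPKM at P5, and none of these differences passed the test.

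Chrm5, the Gq-coupled form best known from midbrain dopamine neurons, went the other way. Its level was 2.12 FPKM at P3, the highest of any receptor at that age, and 0.0102 FPKM at P5. The log2 ratio was -7.71 (SE 3.94, 95% interval -15.4 to 0.01) and its p of 0.0503 in the authors' deposited table was the lowest of all receptors, with q = 0.999988. With 1 FPKM added at each age the ratio was -1.63. Its deposited locus (mm9 chromosome 2, 112319229 to 112320974) spans 1746 bases and overlaps no other row, and the nearest row on one side, the cell survival gene Aven, begins 12146 bases away with 7.72 FPKM at P3 and 3.54 FPKM at P5. Whether reads of Aven entered the Chrm5 value was not tested.

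Nicotinic subunits assemble into fast ion channels, and in the brain the commonest contain Chrna4 and Chrnb2 together, or Chrna7 alone. Chrna4 was listed at 0.50 FPKM at P3 and 4.28 FPKM at P5, from a locus on mm9 chromosome 2 between 180757016 and 180773882. Its log2 ratio was 3.10 (SE 1.87, 95% interval -0.56 to 6.76, p = 0.097 in the authors' deposited table), so the interval included 0. The partner subunit Chrnb2 stood at 1.75 and 2.16 FPKM, with a ratio of 0.30 (SE 1.85, p = 0.87 in the authors' deposited table), and was therefore above Chrna4 at P3 and below it at P5. Chrna7 had 0.367 and 0.691 FPKM.

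Other nicotinic subunits were lower. Chrnb1, a muscle subunit, had 0.526 FPKM at P3 and 0.0877 FPKM at P5, and Chrnb4 had 0.357 and 0.00478 FPKM. Chrna2, Chrna3 and Chrna5 ranged from 0 to 0.0681 FPKM at P3 and from 0.0430 to 0.188 FPKM at P5; Chrna5 is known from the deepest cortical layer. Of the 16 nicotinic genes, 7 were listed at 0 at both ages. In sum, nicotinic FPKM was 3.60 at P3 and 7.50 at P5, of which Chrna4 and Chrnb2 supplied the larger part at P5, and the muscarinic sum was 5.22 and 7.37 FPKM.

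Dopamine receptors were represented almost entirely by Drd1a, the Gs-coupled receptor that prevails in cortex. Its level was 0.759 FPKM at P3 and 3.97 FPKM at P5 (mm9 chromosome 13, 54146553 to 54151027), with a log2 ratio of 2.39 (SE 2.16, 95% interval -1.85 to 6.62, p = 0.27 in the authors' deposited table). Drd5, the other Gs-coupled member, was listed at 0 at P3 and had 0.0875 FPKM at P5, and the Gi/o-coupled Drd3 was listed at 0 and then at 0.416 FPKM. Both other Gi/o-coupled members, Drd2 and Drd4, were listed at 0 at each age. Without Drd1a, the dopamine sum was 0 at P3 and 0.504 FPKM at P5.

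No serotonin receptor reached 1 FPKM at P3. The highest there was Htr3a, the ion channel subunit that marks a class of cortical interneurons, with 0.275 FPKM at P3 and 0.752 FPKM at P5. Htr1f, coupled to Gi/o, was listed at 0 at P3 and had 1.75 FPKM at P5, where it was the highest of its family (p = 0.092 in the authors' deposited table, and no ratio can be given). Htr7, coupled to Gs, had 0.156 and 1.44 FPKM, a log2 ratio of 3.21 (SE 3.05, p = 0.29 in the authors' deposited table). Htr1d, coupled to Gi/o, had 0.0170 and 0.762 FPKM, a ratio of 5.48 (SE 3.71, p = 0.14 in the authors' deposited table) that became 0.79 when 1 FPKM was added at each age.

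The remaining serotonin receptors stayed at or below 0.338 FPKM. Htr2b and Htr2c, coupled to Gq, were listed at 0 at P3 and had 0.338 and 0.197 FPKM at P5. Htr1a, Htr4 and Htr5a had at most 0.129 FPKM at either age. Htr1b, which is known from thalamic axons, and Htr2a, the Gq-coupled receptor of mature cortical pyramidal neurons, were listed at 0 at both ages. Summed over the 14 genes, serotonin receptor FPKM was 0.644 at P3 and 5.42 at P5.

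Adrenergic receptors respond to noradrenaline from the locus coeruleus. Adra2a, coupled to Gi/o and a brake on noradrenaline signalling, had 1.41 FPKM at P3 and 1.15 FPKM at P5, with a log2 ratio of -0.29 (SE 1.84, p = 0.87 in the authors' deposited table) and the narrowest error of any receptor. Adra2b had 1.05 and 0.452 FPKM, and Adra2c 0.284 and 0.109 FPKM, so each of the Gi/o-coupled alpha-type members had lower FPKM at P5; neither Adra2a nor Adra2b passed the test, and Adra2c was not tested. The Gs-coupled Adrb1 went the other way, with 0.181 and 1.25 FPKM, a log2 ratio of 2.79 (SE 3.08, p = 0.37 in the authors' deposited table). The Gq-coupled Adra1a, Adra1b and Adra1d had at most 0.312 FPKM at either age.

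Among histamine receptors, Hrh3, the Gi/o-coupled receptor that also serves as a brake on histamine release, had 1.11 FPKM at P3 and 0.416 FPKM at P5, a log2 ratio of -1.41 (SE 2.56, p = 0.58 in the authors' deposited table). Hrh1 and Hrh2 were listed at 0 at P3 and had 0.00374 and 0.0138 FPKM at P5. Histamine was the 1 family whose summed FPKM was lower at P5, 0.433 against 1.11 at P3, and without Hrh3 its sums were 0 at P3 and 0.0175 FPKM at P5. Without receptors that share a locus, the muscarinic sum was lower at P5 as well, 2.45 against 3.06 FPKM.

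Grouped by signalling class, the Gs-coupled receptors showed the widest gap between the ages. None of these 9 had at least 1 FPKM at P3 and 4 did at P5, among them Drd1a, Htr7 and Adrb1, and their summed FPKM was 1.23 at P3 and 7.79 at P5. Drd1a was the largest contributor, and without it the sums were 0.466 and 3.82 FPKM. The 16 Gi/o-coupled receptors summed to 6.10 and 10.2 FPKM, the 10 Gq-coupled receptors to 3.33 and 3.52 FPKM, and the 18 ion channel subunits to 3.88 and 8.25 FPKM. Sums of pooled values carry no replicate error, and the differences between classes were not tested.

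**Figure D4:**
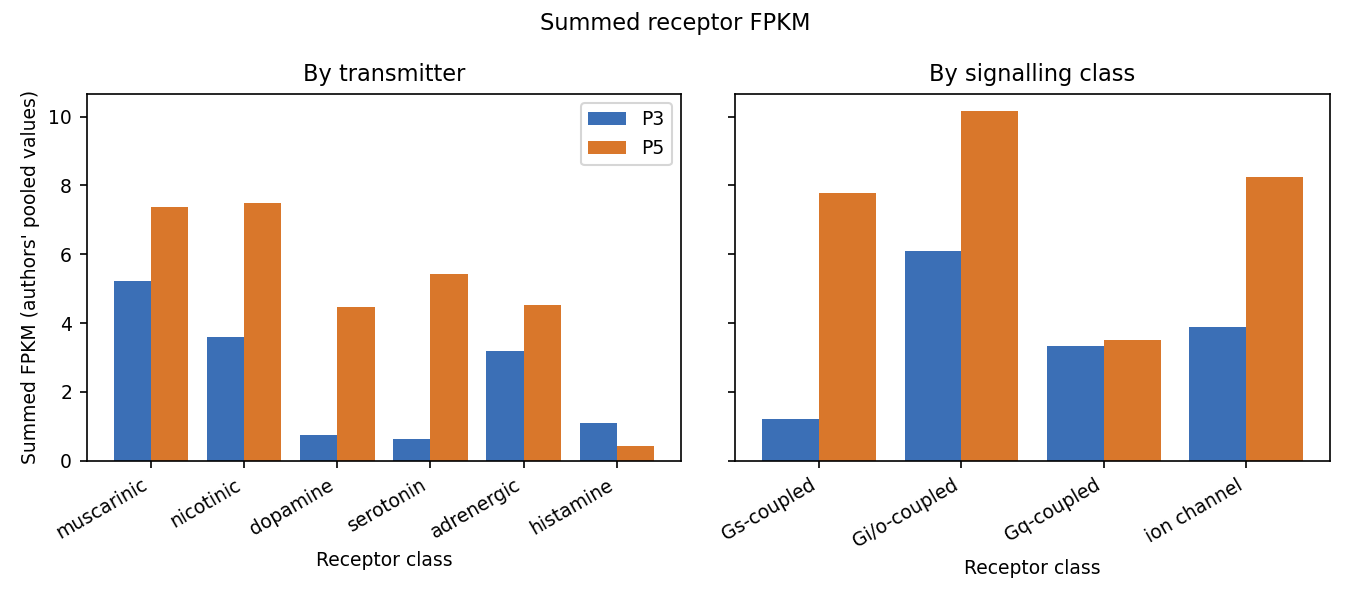
Summed FPKM (y axis, authors' pooled values) at P3 and P5 by transmitter (left) and by signalling class (right), each bar adding the receptors of 1 class. Nicotinic and muscarinic receptors have the tallest bars of the transmitters at P5 (7.50 and 7.37), and the Gs-coupled class goes from 1.23 to 7.79.

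The comparison of P5 with P3 called none of the receptors. Cuffdiff, run by the authors, had tested 18 of 53 receptors (34.0%, against 57.1% of all rows), and 0 passed at q = 0.05, as was so for 0% of the 12865 rows tested. At an unadjusted p of 0.05 the number was also 0 of 18, against 0.770% of tested rows, and by Bonferroni adjustment 0. The lowest p-values in the authors' deposited table belonged to Chrm5 (0.0503), Htr1f (0.092) and Chrna4 (0.097). Of the 16 tested receptors with FPKM above 0 at both ages, 11 (68.8%) had higher and 5 lower FPKM at P5, against 55.6% higher among 12313 such rows of the table, and their median log2 ratio was 1.13 against 0.13. With a minimum mean of 1 FPKM there were 5 higher and 2 lower, and with untested rows added 15 higher and 8 lower.

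For 11 of the 16 receptors the SE exceeded the log2 ratio. The SE of a log2 ratio ran from 1.84 (Adra2a) to 14.4 (Chrm4), with a median of 2.75 against 1.38 over all tested rows. Each of the 16 intervals included 0, as did those of 12218 of the 12313 such rows of the table. With the narrowest of these errors, a ratio would have to be 3.61 log2 units for its interval to leave 0 out, so smaller differences between P3 and P5 in these receptors were not detectable by this test. The absence of calls therefore does not show that levels were equal at the 2 ages.

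**Figure D5:**
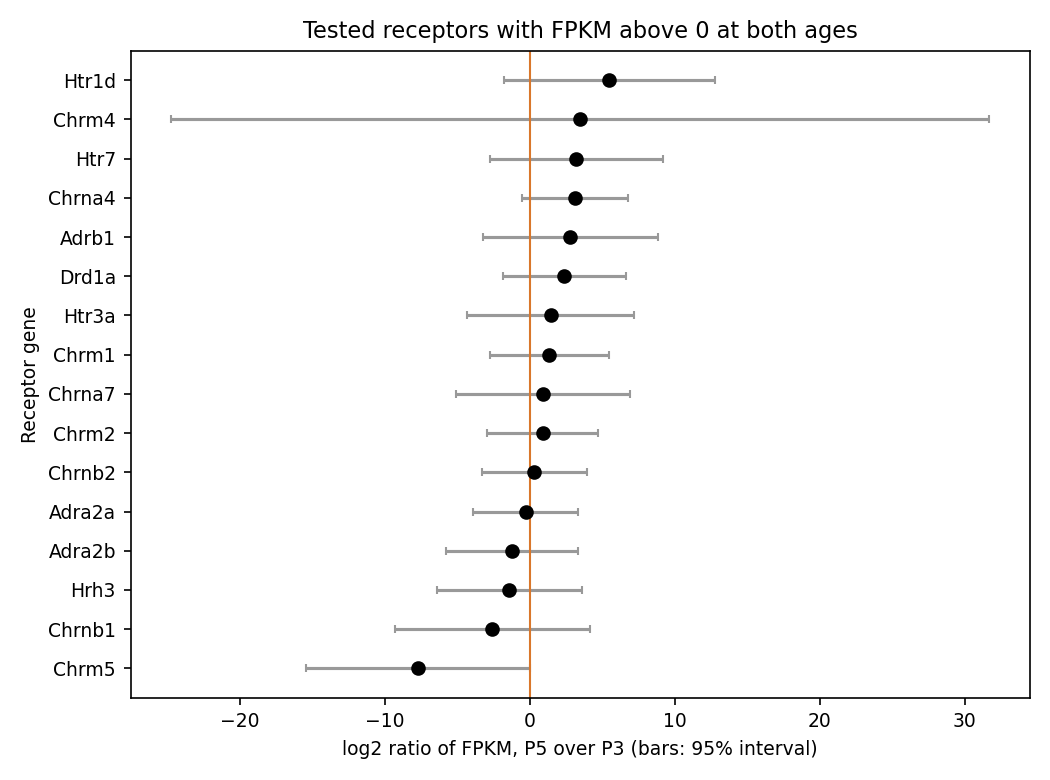
Log2 ratio of FPKM at P5 over P3 (x axis) for the 16 tested receptors above 0 at both ages; points are ratios from the authors' deposited table and bars are 95% intervals from its test statistic. Each interval includes 0, as do 12218 of the 12313 such intervals over all rows. That of Chrm5 includes 0 only just (upper end 0.01), and that of Chrm4 is the widest.

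In all, 7 receptors shared their deposited locus with another row, where reads of overlapping genes may not be told apart. Chrm4 lies with the growth factor gene Mdk (204 FPKM at P3 and 148 FPKM at P5), Chrnb2 with the RNA editing enzyme gene Adar (5.12 and 3.94 FPKM), and Htr2b with the proteasome gene Psmd1 (47.6 and 46.5 FPKM). In each of these the neighbour was above the receptor at both ages. The other 4, Chrm2, Chrne, Htr1b and Htr2c, lay with rows of at most 1.17 FPKM. How far the neighbours' reads entered these receptor values was not tested. Without the 7, 4 receptors reached 1 FPKM at P3 and 8 at P5, and 8 of 13 tested receptors were higher at P5.

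Genes that make, move and clear these transmitters were examined as 8 lists, with G proteins and effectors included and 93 genes in all. Cuffdiff tested 74 of them and 0 passed at q = 0.05 in either direction, as was so for 0% of all 12865 tested rows. At an unadjusted p of 0.05, 1 of the 74 was under, against 0.770% of all tested rows. It was the cholinesterase gene Bche (0.00246 and 1.11 FPKM, p = 0.016 in the authors' deposited table). Counts of higher and lower members cover the tested genes with FPKM above 0 at both ages. Of all 12313 such rows of the table, 55.6% were higher at P5, the share beside which the list counts that follow stand. No list was tested against that share. The enzymes that commit a cell to a transmitter were all under 1 FPKM: Th, for dopamine and noradrenaline, was listed at 0 and at 0.0202 FPKM, Tph1 and Tph2, for serotonin, at 0 and 0.434 FPKM and at 0.00475 and 0.584 FPKM, Hdc, for histamine, at 0 and 0.813 FPKM, and Chat, for acetylcholine, and Dbh, for noradrenaline, at 0 at both ages. In the monoamine synthesis list 5 of 6 tested genes were higher at P5, and its most abundant members were the cofactor enzymes Qdpr (27.3 and 49.1 FPKM), Pts (24.8 and 23.1 FPKM) and Pcbd1 (4.57 and 10.2 FPKM), with Spr at 2.58 and 10.1 FPKM. For acetylcholine synthesis 1 of 3 was higher, and its highest members, Pcyt1a (13.4 and 12.6 FPKM), Chka (14.1 and 11.7 FPKM) and Chkb (2.65 and 6.24 FPKM), act in choline and lipid metabolism.

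Among transporters, the vesicular monoamine transporter Slc18a2 stood out in level with 28.9 FPKM at P3 and 24.5 FPKM at P5, while the plasma membrane transporters for noradrenaline and dopamine, Slc6a2 and Slc6a3, were listed at 0 and the serotonin transporter Slc6a4 had 0.475 and 0.201 FPKM. The low-affinity carriers Slc29a4 and Slc22a3 had 3.17 and 9.52 FPKM and 0.265 and 1.11 FPKM, and 2 of 3 tested members of the list were higher at P5. Breakdown enzymes were higher at P5 in 6 of 7 tested members, against 55.6% of all such rows, without passing the test. Among them was Maoa (6.68 and 13.1 FPKM), while Hnmt, which clears histamine, had 14.0 and 9.87 FPKM. Ache, which splits acetylcholine at synapses, had 0.384 and 5.42 FPKM.

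Several partners of the nicotinic receptors had higher FPKM than any nicotinic subunit. Of 8 tested accessory genes, 5 were higher and 3 lower at P5, with Ly6h at 2.93 and 53.2 FPKM, Tmem35, a chaperone of Chrna7 channels, at 16.3 and 20.8 FPKM, and Lypd1 at 5.4 and 15.5 FPKM. The ratio of Ly6h was 4.19 on the log2 scale (p = 0.12 in the authors' deposited table). Ric3, another chaperone, had 6.46 and 4.33 FPKM. The highest nicotinic subunit levels were 1.75 FPKM at P3 (Chrnb2) and 4.28 FPKM at P5 (Chrna4). Lypd6b (2.87 and 4.12 FPKM) and Lynx1 (1.94 and 0.882 FPKM) were above Chrnb2 at P3 and below Chrna4 at P5. Psca and Rapsn were listed at 0 at both ages.

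Most of the signalling proteins below the receptors reached 1 FPKM. All 16 G protein subunits looked up were tested, 11 of them higher and 5 lower at P5, and 15 reached 1 FPKM at P3 and 16 at P5. Gnas, the alpha subunit of Gs, had 364 and 324 FPKM, the beta subunit Gnb1 196 and 187 FPKM, and Gng3 99.3 and 193 FPKM, while Gnao1, of Go, had 79.2 and 87.6 FPKM and Gnaq, of Gq, 102 and 77.3 FPKM. Of 15 effectors, 9 reached 1 FPKM at P3 and 13 at P5, and 10 of 14 were higher at P5. By their mean over both ages the highest were the protein kinase A subunits Prkacb (41.0 and 40.7 FPKM) and Prkaca (10.5 and 19.6 FPKM) and Ppp1r1b (8.92 and 28.5 FPKM), which integrates dopamine signals, although Plcb1 (13.4 FPKM) was above Prkaca and Ppp1r1b at P3. Among 15 genes of desensitisation and regulation, 12 reached 1 FPKM at P3 and 11 at P5, and 8 of 13 tested were higher, with S100a10 at 14.3 and 56.2 FPKM, Rgs10 at 5.16 and 26.5 FPKM and Rgs4 at 6.48 and 13.5 FPKM.

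Markers of upper layer neurons and of other cells were read from the same table. The 6 upper-layer markers reached 1 FPKM at both ages and summed to 375 FPKM at P3 and 432 FPKM at P5. Of 9 microglia markers 2 reached 1 FPKM at P3 and 9 at P5, their sum was 16.0 and 128 FPKM, and Tmem119 was listed at 0 at P3. Interneuron markers summed to 245 and 507 FPKM, deep-layer and subplate markers to 34.1 and 36.1, oligodendrocyte lineage markers to 122 and 241, and vessel markers to 915 and 947. Npy made up most of the interneuron sum (155 and 356 FPKM). Of the 8 interneuron markers 5 were higher at P5 and 3, Dlx1, Gad2 and Lhx6, were lower (median log2 ratio 0.45). Rgs5 made up nearly all of the vessel sum (911 and 905 FPKM), while 6 of 8 vessel markers had higher FPKM at P5 (median log2 ratio 2.64, or 0.70 with 1 FPKM added at each age), among them Vtn (1.40 and 25.1 FPKM, p = 0.029 in the authors' deposited table) and Cldn5 (0.797 and 11.2 FPKM). Pan-neuronal markers, 4 of 4 of them higher at P5, summed to 132 and 336 FPKM. In sorted bulk RNA, fewer cells of a type and less RNA per cell cannot be told apart, and the part of any of these cells in the 8 receptors that reached 1 FPKM at P5 only was not tested.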

How the data were processed

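The members and lists were chosen with earlier results of these data known. Per the submitters' processing notes, TopHat, Cuffdiff 2.02 and the mm9 genome were used; the sources used here do not give the role of each, the annotation or the strandedness. The authors deposited FPKM values pooled over 3 replicates per age, and the deposited p-values and q-values come from their Cuffdiff comparison. The deposited log2 ratio and test statistic were handled as a score, because placeholders stand where 1 age is at 0; these were left out. A two-sided normal tail of the statistic gave the deposited p-values back to within 2.8e-06. The SE is therefore the absolute log2 ratio over the absolute statistic, and a 95% interval spans 1.96 SE on each side. The SE step was run on simulated ratios whose statistic was built from a known SE, so recovery of that SE was fixed in advance. The behaviour of Cuffdiff at low FPKM was not simulated.

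A receptor was called at status OK and q = 0.05, and counted as present from 1 FPKM. Every receptor with at least 1 FPKM was to be named, as were the 3 highest genes of each pathway list, those not reported aside; ratios and errors were to follow from 5 FPKM or the unadjusted threshold, which none met, so those printed were chosen after their values were seen, as were further genes of the pathway lists. Locus starts were treated as 0-based and are printed 1-based. Computation used Python 3.11.15 with pandas 2.3.3. The promoter windows are RefSeq's on GRCm38.p6; no coordinate was converted between builds. Results for some genes are not reported here, though counts and sums include them. No per-sample column was left aside.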

Additional observations from a re-analysis of the deposited data

How the results depend on the processing

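No paired analysis was possible because the deposited values are pooled over replicates, and for the same reason no replicate could be left out. The count of called receptors was 0 under each alternative run (q of 0.01, Bonferroni adjustment, unadjusted p of 0.05). With a presence minimum of 0.1 FPKM, 19 receptors at P3 and 25 at P5 counted as present, and with 5 FPKM 0 at either age. With a mean of at least 1 FPKM, 5 receptors were higher and 2 lower at P5, and with rows of every status 8 were lower. Without the member whose mean over both ages was highest, the summed FPKM was 0 at P3 and 0.504 at P5 for dopamine, 1.79 at P3 for adrenergic, 3.16 and 3.59 for muscarinic, 3.22 at P5 for nicotinic, and 0 and 0.0175 for histamine receptors. Without shared loci it was 3.06 and 2.45 for muscarinic receptors, and 1.86 at P3 for nicotinic receptors. With a pseudocount of 1 FPKM the median log2 ratio of microglia markers was 2.75 in place of 4.69, and that of vessel markers 0.70 in place of 2.64. The median ratio of the receptors was positive under each alternative run, from 0.72 to 1.35. The causes of these shifts were not tested. Depth is unknown, so no limit from counting can be given.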
